A study of Mus musculus with 15 samples.

Results

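The insulin-like growth factor (IGF) system was represented by 9 genes: the ligand Igf1, the receptors Igf1r and Igf2r, and the binding proteins Igfbp2, Igfbp3, Igfbp4, Igfbp5, Igfbp6 and Igfbp7. They were taken from the count table by gene symbol, with 1 row for each symbol, and make up 9 of the 49585 genes in the table. Poly(A) RNA was measured in 15 libraries, 3 for each of 5 groups, all from cells of C57BL/6 origin. The first group was 005, a mouse glioma stem cell line kept in a serum-free stem cell medium. The next groups were tumor-derived endothelial cells (TDECs), made from that same line in EGM-2 BulletKit medium at 1% oxygen: TDEC day 2, and TDEC, whose labels give no day and which were taken as the day 5 cells of the study. EGM-2 is an endothelial growth medium sold with growth factor supplements, among them an IGF1 analogue. Another group was TDEC sertraline, TDECs differentiated for 5 days and then given 5 µM sertraline, a selective serotonin reuptake inhibitor, for 24 h. The last was MBMEC, purchased mouse brain microvascular endothelial cells grown in a serum-containing medium of another supplier. The 005 cells and the TDECs differ in medium, oxygen and time in culture together, so the effects of these cannot be told apart. The TDECs of every group come from a single line, and the number of animals behind the MBMECs is not given in the sources used here. The study calls the replicates of TDECs before and after sertraline biological; for the other groups nothing says that the 3 libraries came from separate cultures, and p-values then cover only the spread between these libraries.

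IGF1 and IGF2 are secreted peptides that act through IGF1R, a receptor tyrosine kinase closely related to the insulin receptor, which passes the signal to insulin receptor substrate (IRS) adaptors, PI3 kinase and AKT. IGF2R, also known as the cation-independent mannose 6-phosphate receptor, carries lysosomal enzymes and takes IGF2 to the lysosome without signalling as a tyrosine kinase. The IGF binding proteins (IGFBPs) hold IGFs outside the cell, where they prolong their lifetime and limit their access to the receptor. Proteases such as PAPP-A release the IGFs again, and stanniocalcins inhibit PAPP-A. In gliomas IGFBP2 is known as a product of the tumor cells.

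The binding proteins that carried most of the reads sit on chromosomes 1 and 11. On build mm10, Igfbp2 (ENSMUSG00000039323, chr1:72824503-72852474, plus strand) and Igfbp5 (ENSMUSG00000026185, chr1:72857932-72874884, minus strand) face each other tail to tail with a gap of 5457 bases. Igfbp3 (ENSMUSG00000020427, chr11:7206086-7213923, minus strand) lies 3539 bases from Igfbp1, and Igfbp4 (ENSMUSG00000017493, chr11:99041244-99054392, plus strand) lies on the same chromosome far from both. These 4 genes held nearly all of the binding protein reads and each was called in at least 1 comparison, so the 250 bases upstream of their RefSeq starts (GRCm38.p6) are shown 5′ to 3′. The windows are chr1:72824230-72824479 on the plus strand for Igfbp2, chr11:7213924-7214173 on the minus strand for Igfbp3, chr11:99040994-99041243 on the plus strand for Igfbp4 and chr1:72874866-72875115 on the minus strand for Igfbp5. Capitals mark matches on either strand to ACGTG or GCGTG, the core letters of a hypoxia response element, or to TATAAA, the TATA box.
Igfbp2: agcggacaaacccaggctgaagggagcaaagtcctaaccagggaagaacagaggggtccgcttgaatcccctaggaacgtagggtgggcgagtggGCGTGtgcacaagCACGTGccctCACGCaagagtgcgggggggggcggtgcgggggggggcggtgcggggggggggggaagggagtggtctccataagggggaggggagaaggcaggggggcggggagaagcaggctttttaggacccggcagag
Igfbp3: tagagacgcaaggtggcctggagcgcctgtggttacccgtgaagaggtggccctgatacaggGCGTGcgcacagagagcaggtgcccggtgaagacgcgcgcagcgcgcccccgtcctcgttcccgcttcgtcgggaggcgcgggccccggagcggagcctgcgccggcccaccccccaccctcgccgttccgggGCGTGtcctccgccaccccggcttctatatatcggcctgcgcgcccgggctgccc
Igfbp4: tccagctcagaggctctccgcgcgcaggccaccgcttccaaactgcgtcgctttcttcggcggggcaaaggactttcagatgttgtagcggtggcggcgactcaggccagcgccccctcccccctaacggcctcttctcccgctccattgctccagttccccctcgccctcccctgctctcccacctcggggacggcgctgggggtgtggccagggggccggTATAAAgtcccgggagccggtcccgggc
Igfbp5: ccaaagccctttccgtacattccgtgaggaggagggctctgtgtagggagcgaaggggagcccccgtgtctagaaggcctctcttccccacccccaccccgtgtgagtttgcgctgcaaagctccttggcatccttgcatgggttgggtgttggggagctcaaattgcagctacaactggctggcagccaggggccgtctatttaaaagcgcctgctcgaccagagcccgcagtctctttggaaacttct
The Igfbp2 window held 3 capital runs of the ACGTG or GCGTG letters, of which the middle one, CACGTG, reads the same on both strands and therefore matched on each. The Igfbp3 window held 2 such matches, beginning 188 and 55 bases before the start, and none to TATAAA. The Igfbp4 window held no ACGTG or GCGTG and a TATAAA beginning 28 bases before the start, and the Igfbp5 window held neither. Among the 32851 mouse promoter windows of the same length, 38.6% held ACGTG or GCGTG and 12.4% held TATAAA, so these matches are common letters and describe the windows alone. Guanine and cytosine made up 67.2% of the Igfbp2 window, 73.2% of that of Igfbp3, 69.2% of that of Igfbp4 and 58.8% of that of Igfbp5. Igfbp2 has a further RefSeq start, whose window (chr1:72825137-72825386, plus strand) is not shown. That window held no match of either kind, with 56.4% guanine and cytosine.

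The libraries held 11283680 to 17093061 counts, and levels are given as CPM, the counts of a gene scaled to the same library size in every library, with TMM factors over all 15. Within a group, 3 libraries stood apart: by a chi-square of the counts per gene, replicate 3 of 005 was at 11.2 and 11.4 from its partners, which were at 2.15 from each other, replicate 3 of TDEC day 2 was at 11.1 and 11.7 against 2.50, and replicate 2 of TDEC sertraline was at 6.97 and 7.27 against 2.28. A list of 10 defining endothelial genes summed to 7119 to 7263 CPM in MBMEC and to between 4.19 and 13.3 CPM in the other 4 groups, where Cldn5 was at 0 in every library of 005 and the TDECs and Tie1 in every TDEC library. Kdr, a receptor of vascular endothelial growth factor on that list, was called higher than in 005 on day 2 (log2 fold change 2.13 ± 0.44, adjusted p = 0.0031) and in TDEC (1.72 ± 0.29, 2.3e-04), at 1.20, 5.42 and 4.04 CPM beside 597 CPM in MBMEC. Of the rest of the list, only Pecam1 and Egfl7 passed the filter on low counts against 005, and neither was called. The remaining genes were not tested there. Among these, Emcn and Robo4 were at 0 over 005 but not over TDEC day 2 or TDEC, and Tie1 the reverse. Pecam1 was at −0.12 ± 0.40 on day 2 (adjusted p = 0.84) and −0.90 ± 0.35 in TDEC (0.039). Egfl7 was at −0.51 ± 0.47 on day 2 (adjusted p = 0.43) and −0.50 ± 0.33 in TDEC (0.20). The cells labelled as differentiated endothelial cells thus held little of the endothelial set by these transcripts, and the name TDEC is used below as the label gives it. The glioma stem cell list summed to 1825 to 1971 CPM in 005 and to 1035 to 1275 CPM in the 3 TDEC groups, although its members differed in direction: Olig2 was called lower in TDEC than in 005 (−1.38 ± 0.07, adjusted p = 4.0e-09) and Prom1, which encodes CD133, 4.30-fold higher (6.1e-10). In bulk RNA, fewer cells of a type and less RNA per cell cannot be told apart.

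Relative to 005, the members called in the TDECs were binding proteins and, in TDEC, the receptor Igf1r. In TDEC day 2 against 005, Igfbp3, Igfbp4 and Igfbp5 rose, which is 3 of the 7 members that passed the filter on low counts, and no member tested fell. Igf1 and Igfbp6 were not tested there. Without that filter, edgeR's quasi-likelihood test gave Igfbp6 lower (log2 fold change −3.69 ± 0.95, adjusted p = 0.0017) and Igf1 higher (2.07 ± 0.72, 0.026), both on few counts. A gene was called at an adjusted p under 0.05 with a log2 fold change beyond 1 in either direction, that is a fold of 2. Of all 15344 genes tested in this comparison, 5.35% were called higher and 4.48% lower. At an adjusted p under 0.05 with any fold, 6 members were higher and none lower, against 18.8% and 20.2% of all genes. In TDEC against 005, Igf1r joined them and 4 of 8 members tested rose with none lower, against 13.1% higher and 10.4% lower among all 15648 genes. With any fold, 6 were again higher and none lower, against 32.4% and 33% of all genes. Of these 6, Igf2r and Igfbp2 did not keep an adjusted p under 0.05 when plain library totals replaced the TMM factors. In both comparisons an unadjusted p under 0.05 and DESeq2 with both thresholds, under the same filter on low counts, likewise gave 0 lower. The median log2 fold change of the members tested was 0.65 on day 2 and 1.00 in TDEC, while the medians over all genes tested were −0.02 and −0.01. Between TDEC day 2 and TDEC no member passed both thresholds by edgeR or by DESeq2, where 11.1% of all genes were called higher and 9.35% lower. At an adjusted p under 0.05 with any fold, 3 of the 6 members tested were higher and 2 lower in TDEC than on day 2, as they were at an unadjusted p under 0.05, against 31% and 31.9% of all genes. The comparisons share the libraries of 005, TDEC day 2 and TDEC, so their counts are not independent of each other.

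**Figure D1:**
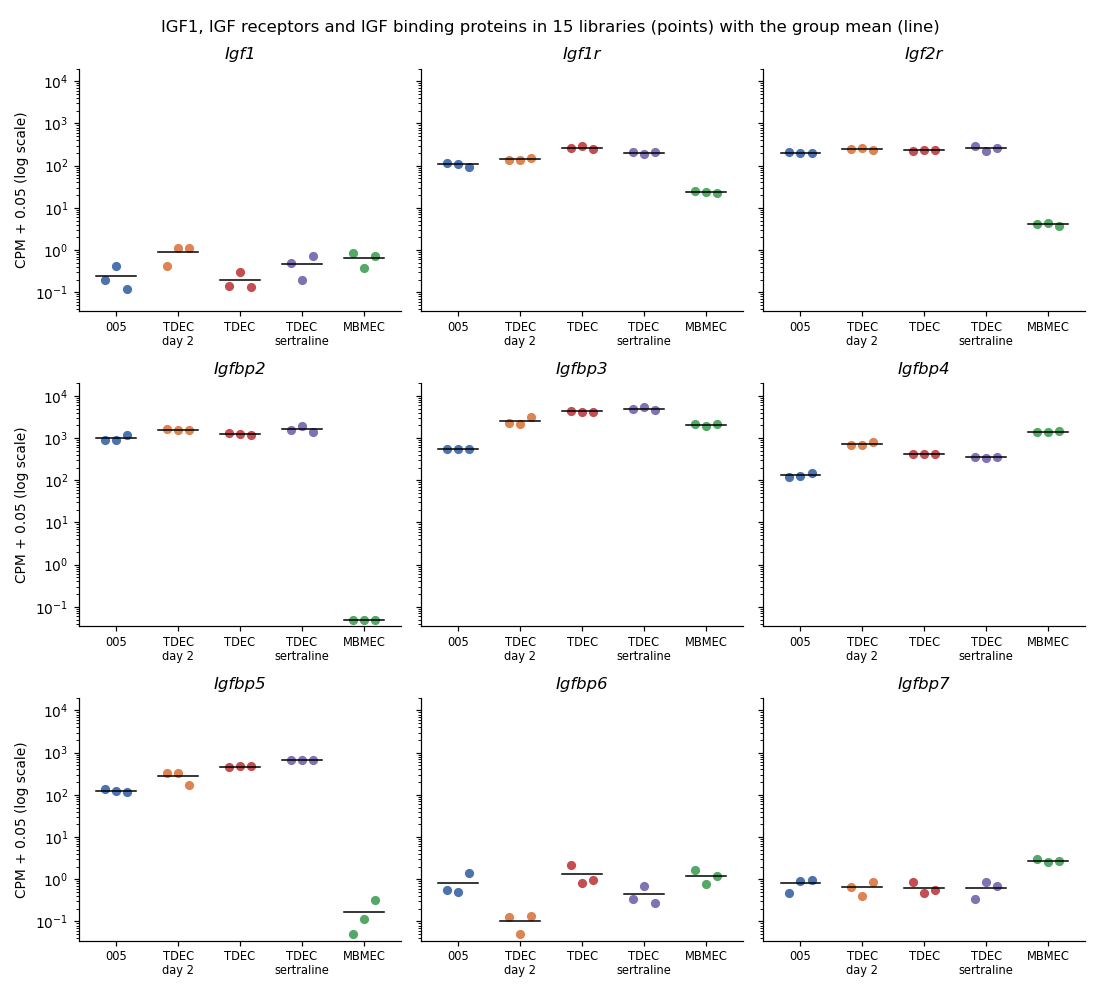
CPM plus 0.05 on a log axis for each of the 9 members, with 1 point for each of the 3 libraries of a group and a line at the group mean. Igfbp2 and Igfbp5 lie between 118 and 1897 CPM in 005 and the TDECs and at or near 0 in MBMEC, Igfbp3 lies lowest in 005, and Igf1, Igfbp6 and Igfbp7 stay under 3 CPM in every library.

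The ligand Igf1 (ENSMUSG00000020053, chr10:87858265-87937042, plus strand) was close to absent from these cultures. Its counts were 2, 5 and 1 in 005, 5, 15 and 13 in TDEC day 2, and 1, 3 and 1 in TDEC. They were 6, 2 and 9 in TDEC sertraline and 13, 5 and 10 in MBMEC, so every library of every group lay at or under 1.08 CPM. Igf1 did not pass the filter on low counts in any of the 6 comparisons. Without that filter it was higher in TDEC day 2 than in 005, with a log2 fold change of 2.07 ± 0.72 (SE) and an adjusted p of 0.026 by edgeR's quasi-likelihood test, on sums of 33 and 8 counts. Igf1 is a known product of microglia and macrophages. The 8 markers of those cells summed to 7.95 to 13.3 CPM over the 15 libraries, with C1qa at 0 in every group. One of them, P2ry12, likewise had its most counts on day 2, with 16 counts over 005, 43 over TDEC day 2, 2 over TDEC, 2 over TDEC sertraline and 0 over MBMEC. It was called higher in TDEC day 2 than in 005 (1.47 ± 0.43, adjusted p = 0.019) and lower in TDEC than on day 2 (−4.05 ± 0.77, 8.1e-04), where Igf1 without the filter was at −2.51 ± 0.81 (0.0058). Of the other markers, only Csf1r and Tmem119 were tested on day 2 against 005, and only Csf1r in TDEC against day 2. Cx3cr1 and Aif1 were at 0 over TDEC day 2. Csf1r and Tmem119 were not called on day 2 against 005 (−0.07 ± 0.16 and 0.54 ± 0.44, adjusted p = 0.77 and 0.36). Csf1r was at 0.24 ± 0.16 in TDEC against day 2 (adjusted p = 0.19). The part of these markers in the Igf1 counts was not tested.

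The other ligand, Igf2, was taken from a list of 47 genes of IGF and insulin signalling outside the members. Its counts were 60, 66 and 84 in 005, 11, 13 and 6 in TDEC day 2, and 26, 23 and 19 in TDEC. They were 25, 8 and 19 in TDEC sertraline and 1073, 870 and 1049 in MBMEC. MBMEC was thus the group with most Igf2, at 66.0 ± 7.1 CPM (SD, n = 3), and the ranges of 005 and the TDECs lay under 6.1 CPM. Igf2 fell in TDEC day 2 relative to 005 by 2.73 ± 0.31 on the log2 scale (adjusted p = 4.8e-05), was 1.33 ± 0.36 higher in TDEC than on day 2 (0.0077), and was lower in TDEC than in 005 (−1.39 ± 0.24, 2.5e-04). Igf2 is an imprinted gene, and the parental origin of these reads was not analysed here.

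The signalling receptor Igf1r (ENSMUSG00000005533, chr7:67952827-68233668, plus strand) increased with differentiation. It was at 116, 109.8 and 94.6 CPM in 005, 133, 134 and 153 CPM in TDEC day 2, and 259, 288 and 252 CPM in TDEC. In TDEC sertraline it was at 213, 188 and 214 CPM, and in MBMEC at 25.6, 24.2 and 22.6 CPM. The 5 groups did not overlap, in the order MBMEC, 005, TDEC day 2, TDEC sertraline and TDEC. Igf1r was called higher in TDEC than in 005, with a log2 fold change of 1.31 ± 0.08 (SE), a 2.47-fold difference (adjusted p = 3.0e-08). Most of it lay after day 2: the log2 fold change was 0.37 ± 0.10 from 005 to TDEC day 2 (adjusted p = 0.0097) and 0.92 ± 0.07 from day 2 to TDEC (adjusted p = 1.1e-06), neither of which reached a fold of 2. Against MBMEC, Igf1r was 11.0-fold higher in TDEC (log2 fold change 3.46 ± 0.06, adjusted p = 2.0e-27) and 4.40-fold higher in 005 (2.14 ± 0.09, 1.9e-10).

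Igf2r (ENSMUSG00000023830, chr17:12682406-12769664, minus strand) was nearly level across the glioma-derived groups and far lower in MBMEC. Its CPM were 206, 204 and 196 in 005, 246, 266 and 237 in TDEC day 2, and 220.5, 229 and 241 in TDEC. They were 293, 224 and 262 in TDEC sertraline and 4.09, 4.21 and 3.65 in MBMEC. TDEC, TDEC day 2 and TDEC sertraline overlapped one another, and 005 lay just under all 3. The log2 fold change was 0.29 ± 0.07 in TDEC day 2 against 005 (adjusted p = 0.00997), 0.18 ± 0.06 in TDEC against 005 (0.018) and −0.13 ± 0.06 in TDEC against day 2 (0.087). The small difference between TDEC and 005 was lost when plain library totals replaced the TMM factors (0.05, adjusted p = 0.50). Against MBMEC it was 57.7-fold higher in TDEC (5.85 ± 0.08, adjusted p = 1.2e-30) and 50.3-fold higher in 005 (5.65 ± 0.09, 2.8e-14).

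Airn, a long noncoding RNA on the opposite strand, overlaps Igf2r over 28354 bases. The libraries were made with a strand-specific kit, but whether the counting used the strand is not given in the sources used here. Airn was at 11.8 ± 3.6 CPM in 005, 4.27 ± 0.55 in TDEC day 2, 6.59 ± 2.47 in TDEC, 4.81 ± 0.47 in TDEC sertraline and 0.064 ± 0.063 in MBMEC (SD, n = 3 each). It was lower in TDEC day 2 than in 005 (log2 fold change −1.49 ± 0.23, adjusted p = 4.8e-04), where Igf2r was not lower. Airn amounted to between 0.040 and 0.152 of the Igf2r level per kilobase of exon in the 5 groups.

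Compared per kilobase of exon, which allows genes to be set side by side, the 2 receptors changed places between the cell types. Igf1r was at 6.35 ± 0.65 CPM per kb in 005 and Igf2r at 21.7 ± 0.6, a ratio of 0.293 ± 0.022 (SD, n = 3). The ratio of Igf1r to Igf2r was 0.312 ± 0.041 in TDEC day 2, 0.643 ± 0.060 in TDEC, 0.440 ± 0.032 in TDEC sertraline and 3.36 ± 0.15 in MBMEC. Igf1r also gained on the insulin receptor gene Insr: the ratio of Igf1r to Insr per kb was 0.795 ± 0.026 in 005, 0.968 ± 0.124 in TDEC day 2, 1.20 ± 0.08 in TDEC, 1.30 ± 0.03 in TDEC sertraline and 0.539 ± 0.012 in MBMEC. These ratios are descriptions, with no test.

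Igfbp3, the main carrier of IGFs in blood, showed the widest increase of the 8 members tested between 005 and TDEC. It was at 543, 551 and 559.8 CPM in 005, 2237, 2212 and 3125 CPM in TDEC day 2, and 4319, 4233 and 4253 CPM in TDEC. In TDEC sertraline it was at 4895, 5485 and 4579 CPM, and in MBMEC at 2164, 1901 and 2153 CPM. No group overlapped another, and the order was 005, MBMEC, TDEC day 2, TDEC and TDEC sertraline. The log2 fold change was 2.18 ± 0.12 in TDEC day 2 against 005, a 4.52-fold difference (adjusted p = 3.4e-07), and 2.94 ± 0.05 in TDEC against 005, a 7.67-fold difference (1.4e-12). Replicate 3 of TDEC day 2 was the highest of its group, and without replicate 3 of both groups, an alternative added after the data were seen, the day 2 value was 2.03. From day 2 to TDEC the difference was 0.75 ± 0.11 (adjusted p = 1.1e-04), under a fold of 2. Ranked by CPM per kb among all genes, Igfbp3 stood between 172 and 176 in the 3 libraries of 005, between 15 and 29 on day 2 and between 15 and 17 in TDEC.

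Set against endothelial cells, Igfbp3 lay on different sides in the 2 states of the line. It was lower in 005 than in MBMEC by 1.92 ± 0.06 on the log2 scale (adjusted p = 2.4e-11), a 3.77-fold difference, and higher in TDEC than in MBMEC by 1.05 ± 0.04 (9.8e-19), a 2.06-fold difference. The second call lies next to the fold threshold: without replicate 2 of MBMEC, the lowest of that group, the log2 fold change was 0.97.

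Igfbp2 was the most abundant binding protein transcript of 005 per kilobase and had no counts in MBMEC. Its CPM were 886, 907 and 1189 in 005, 1622, 1564 and 1546 in TDEC day 2, and 1309, 1219 and 1215 in TDEC. They were 1543, 1897 and 1425 in TDEC sertraline, and all 3 MBMEC libraries were at 0. Day 2 and sertraline overlapped, TDEC lay below both, and the highest library of 005 came close to the lowest of TDEC. The log2 fold change was 0.65 ± 0.10 in TDEC day 2 against 005 (adjusted p = 5.9e-04), 0.31 ± 0.10 in TDEC against 005 (0.013) and −0.35 ± 0.05 in TDEC against day 2 (6.3e-05), all under a fold of 2. The TDEC value became 0.46 without replicate 3 of 005, the highest library of that group, and 0.18 with plain library totals (adjusted p = 0.12). Against a floor of 3 counts over the 3 MBMEC libraries, Igfbp2 was at least 15049-fold higher in 005 and at least 18840-fold higher in TDEC. The summed CPM of 5 astrocyte markers moved alongside it, at 506 to 516 in 005, 923 to 949.7 in TDEC day 2, 746 to 807 in TDEC, 869 to 905 in TDEC sertraline and 0.13 to 0.48 in MBMEC. The single markers differed in direction. From day 2 to TDEC, Slc1a3 was lower (−0.32 ± 0.05, adjusted p = 1.8e-04) and Gfap higher (0.82 ± 0.21, 0.0059). Aqp4 was at −0.65 ± 0.47 (adjusted p = 0.24) and Aldh1l1 at 0.35 ± 0.32 (0.37). The part of these markers in the Igfbp2 level was not tested.

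Igfbp4, a binding protein known mainly for holding IGFs away from the receptor, peaked on day 2 among the glioma-derived groups. It was at 120.3, 126 and 147 CPM in 005, 668, 679 and 814 CPM in TDEC day 2, and 427, 424 and 412 CPM in TDEC. In TDEC sertraline it was at 349, 342 and 349.6 CPM, and in MBMEC at 1392, 1377 and 1461 CPM. The groups did not overlap, with 005 lowest and MBMEC highest. Igfbp4 rose 5.43-fold from 005 to TDEC day 2 (log2 fold change 2.44 ± 0.11, adjusted p = 9.2e-08), and TDEC was 3.19-fold above 005 (1.67 ± 0.08, 1.9e-09). From day 2 to TDEC it was lower by 0.78 ± 0.07 on the log2 scale (adjusted p = 3.3e-06), which is under a fold of 2. MBMEC stood 3.34-fold above TDEC (log2 fold change of TDEC against MBMEC −1.74 ± 0.04, adjusted p = 1.9e-24) and 10.8-fold above 005 (−3.43 ± 0.08, 1.3e-12). In MBMEC the 8 fibroblast markers summed to 13.7 to 14.9 CPM with Dcn, Lum and Dpt at 0, and the 8 mural markers to 4.85 to 6.47 CPM with Rgs5, Kcnj8, Abcc9 and Des at 0. There, 1 fibroblast marker and 3 mural markers were over 1 CPM. The part of these markers in the Igfbp4 level was not tested.

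Igfbp5, which binds IGFs and extracellular matrix, stood higher in each successive group from 005 to sertraline-treated TDECs and was all but missing from MBMEC. Its CPM were 134, 122 and 118 in 005, 336, 334 and 168 in TDEC day 2, and 462, 471 and 471 in TDEC. They were 663, 667 and 686 in TDEC sertraline, and MBMEC held 5 counts in 3 libraries. The groups did not overlap, although replicate 3 of TDEC day 2 lay closer to 005 than to its partners. The log2 fold change was 1.14 ± 0.21 in TDEC day 2 against 005 (adjusted p = 0.0013) and 1.89 ± 0.06 in TDEC against 005 (9.8e-11), a 3.72-fold difference. The day 2 call depended on single libraries: it was 1.41 without replicate 3 of TDEC day 2, 1.39 without replicate 3 of both groups, and 0.99, under the fold threshold, without replicate 1 of TDEC day 2. From day 2 to TDEC it was 0.73 ± 0.20 (adjusted p = 0.0071), and 0.46 without replicate 3 of TDEC day 2. Against MBMEC, which had 0, 1 and 4 counts, the log2 fold change was 11.94 ± 0.13 in TDEC (adjusted p = 2.1e-32) and 10.03 ± 0.22 in 005 (5.3e-13). Its size rests on those few counts: it was 13.43 and 11.56 without replicate 3 of MBMEC and 11.34 and 9.44 without replicate 1. Although Igfbp2 and Igfbp5 are neighbours on chromosome 1, Igfbp2 was lower and Igfbp5 higher in TDEC than on day 2.

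Igfbp6, which prefers IGF2, and Igfbp7, which binds IGFs weakly and is known as a vessel-associated secreted protein, were scarce throughout. Igfbp6 (ENSMUSG00000023046, chr15:102144362-102149511, plus strand) had counts of 7, 6 and 19 in 005, 1, 0 and 1 in TDEC day 2, 24, 9 and 11 in TDEC, 4, 9 and 3 in TDEC sertraline, and 25, 11 and 17 in MBMEC. TDEC day 2 lay below every other group. With 2 counts in all, its CPM ratio to 005 is given by counting alone: 005 was 15.1-fold above day 2 (95% exact interval 3.86 to 130), and TDEC was 24.5-fold above day 2 (6.40 to 209), where the intervals cover counting error only. In TDEC against 005 the log2 fold change was 0.69 ± 0.52 (adjusted p = 0.27), and it was 1.38 (0.029) without replicate 3 of 005, the library with 19 counts. Igfbp7 (ENSMUSG00000036256, chr5:77349240-77408041, minus strand) had 6, 12 and 13 counts in 005, 8, 5 and 10 in TDEC day 2, 9, 5 and 6 in TDEC, 4, 11 and 9 in TDEC sertraline, and 46, 37 and 39 in MBMEC. The 4 glioma-derived groups overlapped and MBMEC lay above them. Igfbp7 was lower than in MBMEC by 2.21 ± 0.34 on the log2 scale in TDEC (adjusted p = 8.2e-07) and by 1.84 ± 0.31 in 005 (1.2e-04). It was −0.40 ± 0.45 in TDEC against 005 (adjusted p = 0.46), a difference not detectable at this depth.

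Summed over Igfbp2 to Igfbp7, binding protein RNA made up 0.194 ± 0.022% of all counts in 005, 0.516 ± 0.042% in TDEC day 2, 0.623 ± 0.010% in TDEC, 0.774 ± 0.069% in TDEC sertraline and 0.325 ± 0.016% in MBMEC (SD, n = 3 each). The sum per kilobase was 766 ± 97 CPM per kb in 005, 1871 ± 155 in TDEC day 2, 2214 ± 44 in TDEC, 2662 ± 278 in TDEC sertraline and 985 ± 55 in MBMEC. Its makeup turned over as the cells differentiated. Igfbp2 held 70.0 ± 2.9% of the sum in 005, 45.9 ± 4.4% in TDEC day 2 and 30.5 ± 0.7% in TDEC, while Igfbp3 held 23.2 ± 2.4%, 42.8 ± 5.1% and 61.6 ± 0.6%. Igfbp4 was at its largest share among the glioma-derived groups on day 2, with 8.71 ± 0.30% against 3.88 ± 0.10% in 005 and 4.31 ± 0.07% in TDEC. MBMEC held 67.2 ± 1.3% Igfbp3 and 32.5 ± 1.3% Igfbp4. TDEC and MBMEC therefore had like shares of Igfbp3 and differed in the second transcript, which was Igfbp2 in TDEC and Igfbp4 in MBMEC. The shares are descriptions with no test, and they follow from the levels given above.

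**Figure D2:**
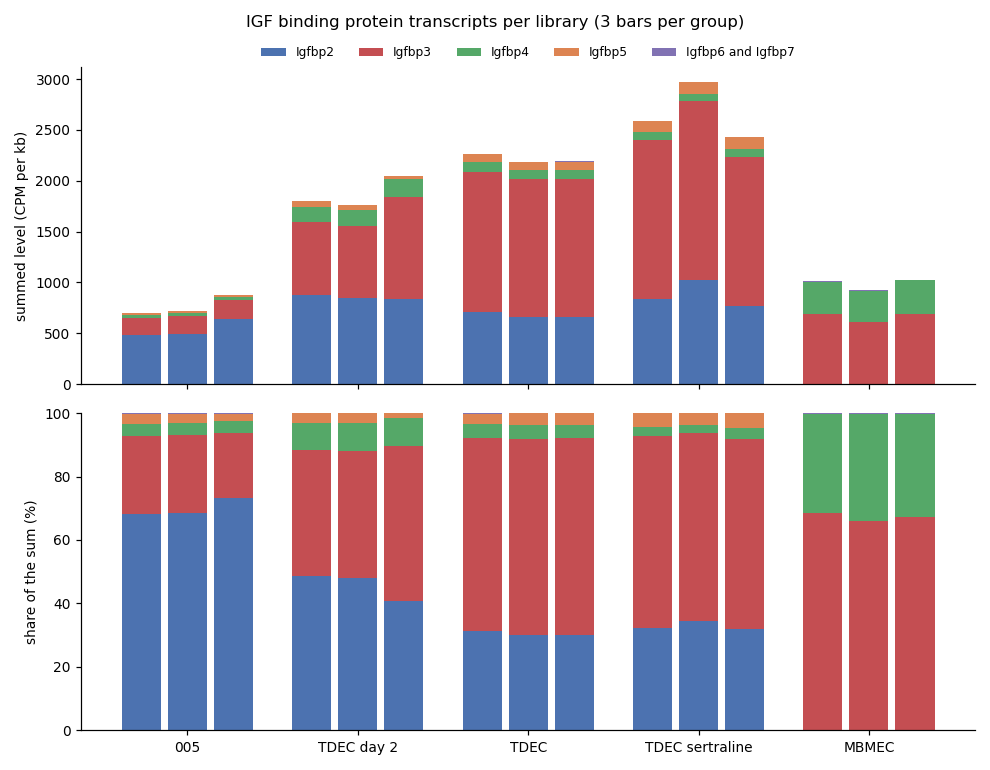
Stacked bars for each of the 15 libraries, in CPM per kb of exon (top) and as a percentage of the sum (bottom), split by binding protein. The Igfbp2 share is 70.0% in 005 and 30.5% in TDEC, the Igfbp3 share is 23.2% and 61.6%, and the MBMEC bars hold Igfbp3 and Igfbp4 with no Igfbp2.

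The comparison with normal brain endothelial cells separated the members most widely. In TDEC against MBMEC, 8 members were tested, and 5 were higher (Igf1r, Igf2r, Igfbp2, Igfbp3 and Igfbp5) and 2 lower (Igfbp4 and Igfbp7), where 28.1% of all 16135 genes were called higher and 20.8% lower. In 005 against MBMEC, 4 were higher (Igf1r, Igf2r, Igfbp2 and Igfbp5) and 3 lower (Igfbp3, Igfbp4 and Igfbp7), against 25.3% and 18.7% of 15992 genes. In either direction 48.9% and 44% of all genes were called in these comparisons, and the cells also differ in origin and medium. The TDECs were kept at 1% oxygen, and the labels give no oxygen level for 005 or MBMEC. The library titles of 005 and the untreated TDECs also carry a prefix of unstated meaning that those of MBMEC lack. None of these can be told apart from the cell type. Igfbp6 passed the test in neither, with log2 fold changes of 0.11 ± 0.39 in TDEC (adjusted p = 0.78) and −0.59 ± 0.46 in 005 (0.25). The first of these turned sign without replicate 1 of TDEC (−0.49) or replicate 2 of MBMEC (−0.14). In the second comparison plain library totals moved the median of all genes by 0.21 on the log2 scale relative to TMM, and in TDEC against 005 by −0.13. No call of a member changed with either.

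**Figure D3:**
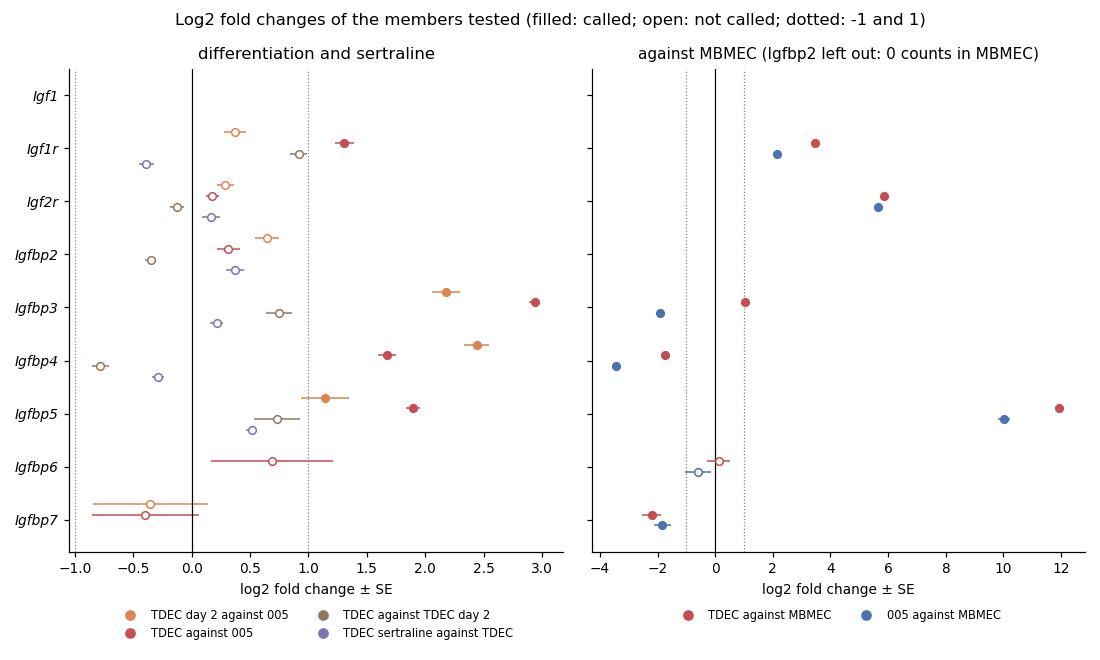
Log2 fold change with its SE for each member that passed the filter on low counts, in the 4 comparisons among glioma-derived cells (left) and the 2 against MBMEC (right, where Igfbp2 is left out because MBMEC had no counts of it). Filled points passed both thresholds. Igfbp3, Igfbp4 and Igfbp5 lie beyond 1 in both comparisons with 005, and all sertraline points lie between −0.39 and 0.51.

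Around the members, 3 protease genes and both stanniocalcin genes were called in TDEC against 005, Pappa, Htra1, Stc1 and Stc2 higher and Adam12 lower, while on day 2 Stc1 alone among them was called and Pappa was not tested. Of the 47 further genes of IGF and insulin signalling, 37 were tested in TDEC day 2 against 005, where 1 was called higher and 2 lower beside 5.35% and 4.48% of all genes. In TDEC against 005, 8 of 39 tested were higher and 4 lower beside 13.1% and 10.4%, and in TDEC against day 2 it was 6 and 2 of 38 beside 11.1% and 9.35%. The median log2 fold change of the list was −0.09, 0.09 and 0.24 in these comparisons, beside −0.02, −0.01 and 0.00 over all genes tested. In all, 7 of the 47 were tested in no comparison: Ins1, Ins2, Insrr, Igfbp1, Igfals, Pappa2 and Igf2bp1.

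Stc1 and Stc2, the stanniocalcins that inhibit PAPP-A, were both called higher in TDEC. Stc1 was at 16.9 ± 1.2 CPM in 005, 40.1 ± 3.0 in TDEC day 2 and 89.7 ± 4.0 in TDEC (SD, n = 3 each), with a log2 fold change of 1.23 ± 0.11 on day 2 (adjusted p = 8.7e-06) and 2.39 ± 0.08 in TDEC (1.6e-10). Stc2 did not share the day 2 step: it was at 36.2 ± 0.8, 29.0 ± 0.7 and 176.8 ± 6.3 CPM, with −0.34 ± 0.09 on day 2 (adjusted p = 0.011) and 2.27 ± 0.06 in TDEC (3.3e-11). Pappa itself, the protease of IGFBP4 and IGFBP5, was scarce, with 7 counts over 005, 2 over TDEC day 2, 63 over TDEC and 0 over MBMEC. It was called higher in TDEC than in 005 (log2 fold change 3.33 ± 0.50, adjusted p = 9.0e-05), and by counting it was 35.1-fold above day 2 (95% exact interval 9.33 to 297). The transcripts of the inhibitors were thus far above that of the protease in TDEC. Per kilobase, Stc1 was at 21.4 ± 0.9 CPM, Stc2 at 34.2 ± 1.2 and Pappa at 0.165 ± 0.058. The levels of these proteins are not known from RNA.

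Of the other proteases, Adam12, which cleaves IGFBP3 and IGFBP5, fell and Htra1, a secreted serine protease that cleaves IGFBPs, rose. Adam12 was at 331 ± 18 CPM in 005, 288 ± 55 in TDEC day 2 and 79.0 ± 2.7 in TDEC, and its log2 fold change in TDEC against 005 was −2.08 ± 0.06 (adjusted p = 5.7e-11). Htra1 was at 41.4 ± 1.3, 60.3 ± 4.0 and 94.1 ± 4.3 CPM, with 1.17 ± 0.07 in TDEC against 005 (2.0e-08) and 0.52 ± 0.09 on day 2 (8.4e-04). Against MBMEC, Stc2 was higher in TDEC by 9.46 ± 0.13, Htra1 by 8.02 ± 0.14, Stc1 by 1.22 ± 0.07 and Adam12 by 1.17 ± 0.07 on the log2 scale (adjusted p = 8.8e-31, 3.9e-28, 3.5e-16 and 8.1e-16), while in 005 against MBMEC Stc1 was lower (−1.19 ± 0.10, 1.9e-07) and Adam12 higher (3.22 ± 0.07, 3.9e-13). Pappa, with no counts in MBMEC, was at least 27.2-fold higher in TDEC. Stc2 had 11 counts over MBMEC, so the size of its difference rests on few counts.

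Downstream of the receptors, the adaptors Irs1 and Irs2 were far higher in the glioma-derived cells than in MBMEC, and the adaptors Shc1 and Grb10 were lower. Irs2 was at 150.3 ± 1.8 CPM in 005, 215 ± 3 in TDEC day 2, 279.6 ± 18.4 in TDEC and 0.372 ± 0.086 in MBMEC, and Irs1 at 104 ± 2, 131 ± 13, 158 ± 10 and 2.66 ± 0.87 CPM. In TDEC against MBMEC the log2 fold change was 9.51 ± 0.11 for Irs2 (adjusted p = 9.7e-32) and 5.88 ± 0.11 for Irs1 (9.5e-28), and in 005 it was 8.61 ± 0.13 (2.4e-14) and 5.27 ± 0.14 (3.2e-12). With Irs2 at 0.372 CPM in MBMEC, the size of its differences rests on few counts. Within the line, Irs1, Irs2 and Insr were higher in TDEC than in 005 by 0.59 ± 0.06, 0.88 ± 0.06 and 0.71 ± 0.07 (adjusted p = 5.1e-06, 1.1e-07 and 1.6e-06), under a fold of 2 each. Grb10 is an adaptor that restrains insulin and IGF1 receptor signalling, and it had 17712 counts in MBMEC, 3 in 005, 1 in TDEC day 2 and none in TDEC, so that MBMEC was at least 4561-fold above TDEC. Its relative Grb14 ran the other way, at 40.2 ± 0.4 CPM in 005, 19.0 ± 1.0 in TDEC day 2, 6.65 ± 0.90 in TDEC and 0.023 ± 0.040 in MBMEC, and it fell by 2.61 ± 0.11 on the log2 scale from 005 to TDEC (adjusted p = 1.1e-09).

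In TDEC against MBMEC, 19 of 40 genes of the list tested were called higher and 7 lower, beside 28.1% and 20.8% of all genes, and in 005 against MBMEC 14 and 8 of 38, beside 25.3% and 18.7%. Besides those named, Lrp1, an endocytic receptor that also binds IGFBP3, was higher in TDEC than in 005 (1.30 ± 0.06, adjusted p = 1.0e-09) and than in MBMEC (3.50 ± 0.06, 1.6e-28). Foxo3, a transcription factor that AKT keeps out of the nucleus, was higher in TDEC than in 005 (1.71 ± 0.06, 2.3e-10). Akt1 and the adaptor Shc1 were lower in TDEC than in MBMEC (−1.78 ± 0.05 and −1.59 ± 0.05, adjusted p = 5.9e-24 and 1.9e-21), as was Igf2 (−5.08 ± 0.13, 6.6e-24). Gab1, a docking adaptor, was higher in 005 than in MBMEC (6.97 ± 0.15, 5.4e-13), and Foxo1 lower (−2.06 ± 0.08, 5.7e-11). The RNA-binding protein gene Igf2bp3 was lower in TDEC than in 005 (−1.03 ± 0.11, 4.4e-06), and the adaptor Irs4 was higher in TDEC than on day 2 (2.83 ± 0.35, 3.5e-05).

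**Figure D4:**
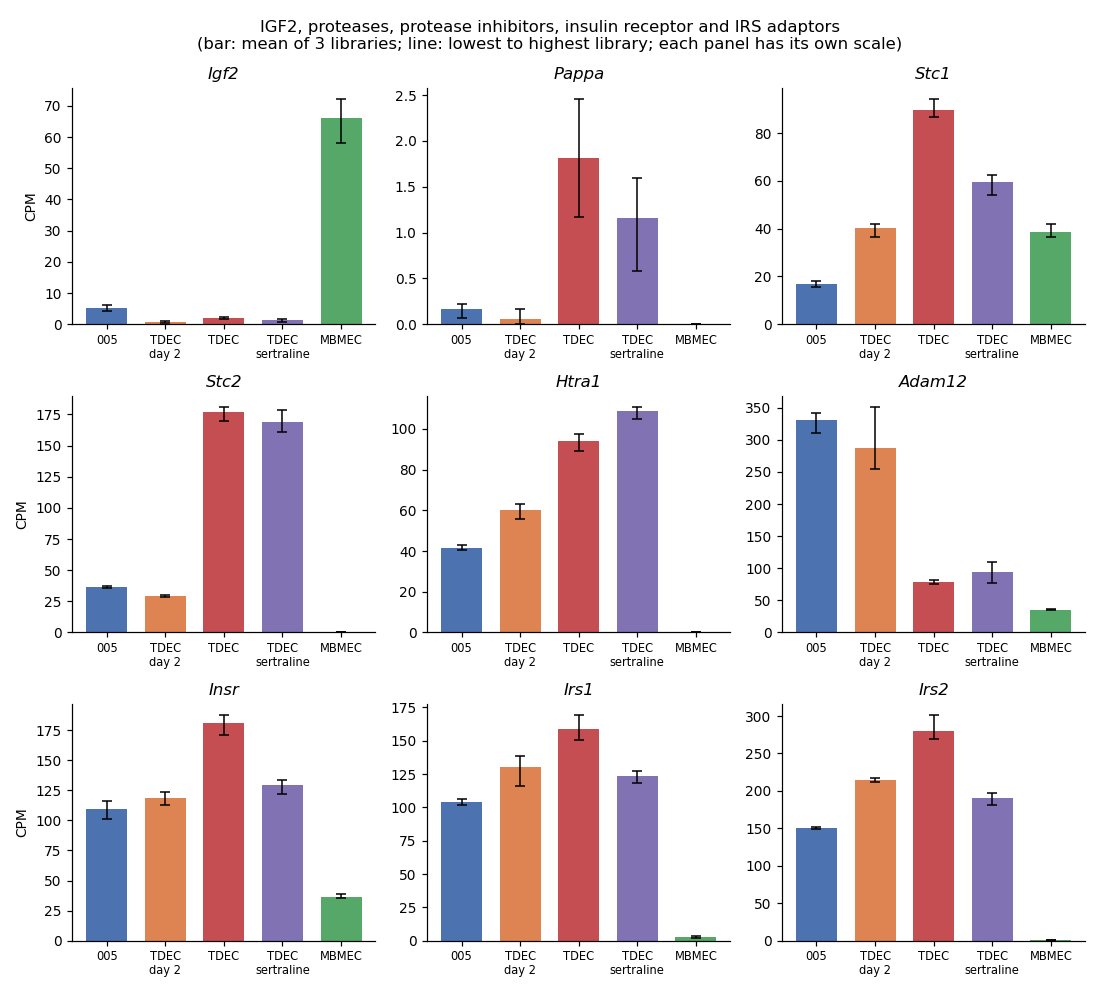
Mean CPM of 3 libraries for Igf2, the proteases Pappa, Htra1 and Adam12, the stanniocalcins Stc1 and Stc2, Insr, Irs1 and Irs2 in the 5 groups, with lines from the lowest to the highest library and a separate scale from 0 in each panel. Stc2 stands at 176.8 CPM in TDEC against 36.2 in 005, Irs2 at 279.6 in TDEC against 0.372 in MBMEC, and Igf2 at 66.0 in MBMEC.

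No member that passed the filter on low counts passed the fold threshold with sertraline. Igf1, Igfbp6 and Igfbp7 were not tested. Without the filter Igfbp6, on sums of 44 and 16 counts, was lower in the treated cells (−1.68 ± 0.49, adjusted p = 0.0040). None of the 6 members tested was called in TDEC sertraline against TDEC by edgeR or by DESeq2, where 1.82% of all 15540 genes were called higher and 3.26% lower. At an adjusted p under 0.05 with any fold, 3 members were higher and 2 lower, against 17.6% and 17.7% of all genes, and at an unadjusted p under 0.05 it was 4 and 2. The highest of these was Igfbp5, with 663 to 686 CPM in the treated libraries and 462 to 471 in the untreated ones (log2 fold change 0.51 ± 0.05, adjusted p = 5.3e-07). Igfbp2 was higher by 0.37 ± 0.08 (adjusted p = 0.0015) and Igfbp3 by 0.21 ± 0.06 (0.0064), and without replicate 2 of TDEC sertraline, which had the highest level of both, the values were 0.24 and 0.14. Igf1r was lower by 0.39 ± 0.07 on the log2 scale (adjusted p = 2.4e-04) and Igfbp4 by 0.29 ± 0.05 (2.1e-04). Igf2r was at 0.16 ± 0.08 (adjusted p = 0.10), with overlapping groups. The median log2 fold change of the 6 members was 0.19, beside 0.00 over all genes tested.

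The wider list did not pass the fold threshold with sertraline either, with 0 of 38 genes called in each direction by edgeR or by DESeq2. Over all genes tested, 1.82% were called higher and 3.26% lower. With any fold 5 of the 38 were higher and 11 lower at an adjusted p under 0.05, against 17.6% and 17.7% of all genes. At an unadjusted p under 0.05 it was 6 and 13. Insr was lower by 0.50 ± 0.06 on the log2 scale, Irs1 by 0.37 ± 0.06, Irs2 by 0.56 ± 0.06 and Stc1 by 0.60 ± 0.07 (adjusted p = 8.4e-06, 1.5e-04, 2.7e-06 and 4.9e-06). The receptors Igf1r and Insr and the adaptors Irs1 and Irs2, each higher in TDEC than in 005, were each lower with sertraline. Igfbp4 and Stc1 had the same directions, while Igfbp2, Igfbp3, Igfbp5 and Htra1 were higher in both comparisons at an adjusted p under 0.05. Both comparisons share the untreated TDEC libraries, so their directions are not independent of each other. Stc2 was at −0.07 ± 0.06 (adjusted p = 0.34), Igf2 at −0.64 ± 0.36 (0.18) and Pappa at −0.64 ± 0.38 (0.20), while Htra1 was at 0.20 ± 0.06 (0.014) and Adam12 at 0.25 ± 0.09 (0.045). The treated cells were collected 24 h after the start of treatment at 5 days, and whether the untreated cells had the same time in culture is not given in the sources used here, so time and sertraline cannot be told apart. The library titles of 005 and the untreated TDECs carry a prefix that those of the treated TDECs and MBMEC lack. Its meaning is not given, and any difference it marks cannot be told apart from sertraline either.

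The genes whose pattern was most like that of each member were ranked by Pearson's r of log2 CPM over the 15 libraries, leaving out predicted genes and clone names. Slc1a3, the astrocyte glutamate transporter, came first for both Igfbp2 (r = 0.999) and Igf2r (0.999), followed by Mlc1 and Rimklb for Igfbp2 and by Fzd1 and Chrdl1 for Igf2r. Tenm4, Adgrb1 and Mark3 came first for Igf1r (0.992 to 0.993), and Zcwpw1, Astn2 and Rgs17 for Igfbp5 (0.996 to 0.997). For Igfbp3 these were App, Jade2 and Arhgef10 (0.976 to 0.990) and for Igfbp4 Slco3a1, Vps29 and Snap47 (0.976 to 0.978). Much of this likeness lies in the distance of the 3 MBMEC libraries from the rest. Over the 12 libraries without MBMEC, an alternative added after the data were seen, the leading genes were as follows. Igfbp3 ran with Cp, Dlc1 and Sdc4 (0.997 to 0.998), Igfbp5 with Insig2, Spop and Gpr37l1 (0.985 to 0.989), Igfbp4 with Mcc, Gcnt2 and Fkbp14 (0.982 to 0.986), Igf1r with Megf11, Nckap1 and Slc20a2 (0.983 to 0.984). Igfbp2 ran with Olfml3, Npnt and Ifitm3 (0.931 to 0.952), and Igf2r with Mttp, Uggt1 and Slc35e1 (0.882 to 0.917). The libraries of a group share their group's level, so these correlations are descriptions. For Igf1, Igfbp6 and Igfbp7, with at most 46 counts in a library, no likeness is given.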

How the data were processed

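The authors sequenced poly(A) RNA from strand-specific libraries and deposited one table of whole-number, unnormalized read counts. According to the submitters' notes, bcl2fastq (2.19), Trimmomatic (0.38), HISAT2 (2.1.0) and featureCounts (1.6.3) were used, on mm10. The annotation release and the strand setting are not given in the sources used here. Groups follow the sample labels.

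For each of 6 comparisons, its 6 libraries were filtered (edgeR's filterByExpr, minimum count 10), TMM-scaled and compared by the two-sided quasi-likelihood test of edgeR 4.0.16 in R 4.3.3 (glmQLFit, glmQLFTest), with Benjamini-Hochberg adjustment over all genes tested. Values after ± are SEs for log2 fold changes, taken as the fold change divided by the square root of F, and SDs for levels. Where a group had few counts, this SE can be too small. For Igfbp5 in TDEC against MBMEC it was 0.13, while leaving out 1 library gave log2 fold changes of 11.34 to 13.43. CPM used TMM over 15 libraries, so their ratios differ slightly from fitted fold changes. Levels per kb used the exon union of GENCODE M21, which held 49326 of 49585 gene IDs. Floors were 3 counts over a group; intervals cover counting error only. An exact permutation test of 3 against 3 libraries cannot go below p = 0.1. The fit was tested on simulated data. Correlations used log2 CPM with a prior count of 2. Alternatives were RLE scaling, plain totals, no filter, DESeq2 1.42.0, 1 fit over 15 libraries, a replicate block and leaving out libraries. Named were all members, up to 4 called pathway genes per direction by smallest p, the proteases, their inhibitors, Igf2, Insr, Irs1, Irs2, Airn, cell type markers and 3 like genes per member. Members and lists were chosen with earlier results of these data known.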

Additional observations from a re-analysis of the deposited data

How the results depend on the processing

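Of 520 alternative log2 fold changes of members 514 kept their direction and call, and no called one reversed. The exceptions came from leaving out 1 library: Igfbp6 in TDEC against MBMEC, not called, turned sign (−0.49 without replicate 1 of TDEC, −0.14 without replicate 2 of MBMEC; range −0.49 to 0.39), Igfbp5 in TDEC day 2 against 005 (0.99) and Igfbp3 in TDEC against MBMEC (0.97) dropped just under a log2 of 1, and Igfbp6 without replicate 3 of 005 was called in TDEC against 005 (1.38) and in 005 against MBMEC (−1.29). Counts of called members moved where a scarce gene entered the test. With no filter beyond 1 count, Igfbp6 was called lower and Igf1 higher in TDEC day 2 against 005 (1 member lower in place of 0), Igf1 lower in both comparisons with MBMEC, Igfbp6 higher and Igf1 lower in TDEC against TDEC day 2 (1 and 1 in place of 0 and 0), and Igfbp6 lower with sertraline (1 in place of 0). With 1 fit over all 15 libraries, Igfbp6 gave the same 3 calls, 1 lower on day 2, 1 higher in TDEC against day 2 and 1 lower with sertraline. Leaving out single libraries gave 0 to 1 members higher and 0 to 1 lower in TDEC against TDEC day 2, and 0 to 1 lower with sertraline. With RLE scaling, plain totals and DESeq2 the member calls were those of the edgeR fit.

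Replicate numbers are shared by the groups but did not pair the libraries: correlations of the deviations of same-numbered libraries ran from −0.079 to 0.077. With the number as a block, the called members were the same in all 6 comparisons, and 785 genes were called higher and 617 lower in TDEC day 2 against 005, beside 821 and 687 without it. Depth limits Igf1, Igfbp6 and Igfbp7, with 0 to 46 counts in a library. Shares of binding protein RNA by the longest transcript in place of the exon union, an alternative added after the data were seen, gave 72.6% Igfbp2 in 005 and 60.7% Igfbp3 in TDEC.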
